A study of Mus musculus with 12 samples.

Results

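The comparison described here is that of 3 hearts from mice carrying the C26 tumour with 3 hearts from non-tumour-bearing (NTB) mice, 6 of the 12 arrays of the series, and the arrays were chosen by their titles. The C26 line is a mouse colon carcinoma, and its cells were injected under the skin of the flank. The NTB mice received 100 µl of the culture medium (RPMI with penicillin and streptomycin) by injection and no cells. All mice were Balb/c-DBAj hybrids aged 10 to 11 weeks, and a tumour arising from an injected line is a fast-growing model of cancer and not a tumour of the mouse's own tissue. The labels give no sex, tumour size, body weight or interval between injection and tissue collection. Whole hearts were taken, so that atria, ventricles, vessels, blood and any other cells were measured together, and the 6 gastrocnemius muscles that are used below for comparison came from other cohorts of mice.

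Each heart was measured on a 1-colour Affymetrix gene array from 250 ng of total RNA. The values are log2 levels, on which a difference of 1 is a 2-fold difference. All rows of the array with a gene symbol were used, which gave 21363 features (19610 named genes and 1753 rows whose symbol could not be resolved). A feature was called when its adjusted p, from limma and corrected by Benjamini and Hochberg over the 21363 features, was under 0.05, and "rose" and "fell" are used of called features only. Changes are C26 minus NTB on the log2 scale, ± the standard error (SE) of the fit, n = 3 hearts per group. The files used here give no detection calls, so a low level cannot be told from background. Nothing in the labels says how the hearts were spread over days or batches. The p-values and SE rest on the spread between these 6 hearts, which limma draws towards that of features of similar level. For a gene with a wide spread the SE can thus be smaller than its 6 hearts alone would give.

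The C26 tumour is a standard model of cancer cachexia, the wasting of muscle and fat that accompanies advanced cancer. Tumour-bearing animals have high circulating cytokines, interleukin-6 among them, and glucocorticoids, and the liver answers with secretion of acute phase proteins. In skeletal muscle wasting is carried largely by the ubiquitin-proteasome pathway and autophagy, whereas the heart, which lives on the oxidation of fatty acids and cannot rest, can lose mass, change its fuel use and alter its matrix and electrical properties.

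In the C26 hearts 1182 features rose and 1184 fell, together 2366 or 11.1% of those tested, 5.53% up and 5.54% down. The counts of every gene list below are to be read against these shares, which dim features lower. With only the 10682 features at or above the median level fitted, 1148 rose and 1111 fell. A list of well-expressed genes can therefore lie above 5.53% and 5.54% without standing out from other expressed genes. The lists were chosen with earlier results of these data known, so their counts are descriptions, and a high share can follow from the choice. The median change of all features was 0.005. Of the called features 154 rose and 36 fell by 2-fold or more, so that fewer falls than rises reached this size. Groups did not overlap in 2340 of the 2366, and they did in the other 26. A call itself favours separate groups, so this count and the statements on overlap below are descriptions and not further evidence. The share of separate groups among all features tested is not given here. When all 12 arrays were fitted together, with the spread shared between heart and gastrocnemius, 423 features rose and 217 fell.

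The arrays carried the signature of heart. Myh6, the main myosin heavy chain of the adult mouse ventricle, lay between 12.77 and 12.99 in the 6 hearts and between 6.64 and 7.47 in the 6 gastrocnemius muscles. Tnni3, cardiac troponin I, lay between 13.35 and 13.62 against 5.52 to 6.19, and the fast skeletal myosin Myh4 ran the other way, with 5.23 to 6.29 in hearts and 13.61 to 13.91 in gastrocnemius. Of 5 cardiomyocyte markers Actc1, cardiac actin, fell by 0.16 ± 0.05 (adjusted p = 0.0499), and Myh6 (-0.15, 0.0960) was not called. Neither Tnnt2 (-0.04, adjusted p = 0.747), Tnni3 (-0.10, 0.339) nor Ryr2 (-0.01, 0.944) was called between C26 and NTB hearts. Actc1 was not called whichever heart was left out (adjusted p up to 0.15). Actc1 was not called with the 12 arrays (adjusted p = 0.923).

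The 20 largest rises among the named genes included secreted proteins, a cell cycle inhibitor and a metallothionein. Like the 20 largest falls below, they were taken only from called genes whose groups did not overlap. Lcn2 (lipocalin 2), an acute phase protein that binds the iron carriers of bacteria, read 11.39, 11.77 and 11.96 in the C26 hearts and 7.36, 7.09 and 7.40 in the NTB hearts. The C26 hearts lay far above every NTB heart, a change of 4.43 ± 0.13 (21.5-fold, adjusted p = 5.51e-10). Scgb3a1, a secretoglobin, read 9.96, 10.51 and 10.66 in the C26 hearts and 6.91, 6.53 and 6.96 in the NTB hearts and rose by 3.57 ± 0.16. Srpx, a sushi-repeat protein, read 9.28, 9.22 and 9.53 in the C26 hearts and 6.44, 5.91 and 6.15 in the NTB hearts. It rose by 3.17 ± 0.13, and neither here nor in Scgb3a1 did the groups overlap. Apod (apolipoprotein D), a lipid carrier, read 11.63, 11.83 and 11.91 in the C26 hearts and 8.81, 8.89 and 8.86 in the NTB hearts and rose by 2.94 ± 0.08. Cdkn1a (p21), the inhibitor of cyclin-dependent kinases, read 10.61, 10.53 and 10.67 in the C26 hearts and 7.38, 7.54 and 8.17 in the NTB hearts and was 7.49-fold higher. NTB heart 3 was the highest of its group and lay well below every C26 heart. Further secreted products among the 20 largest rises were the joint lubricant proteoglycan Prg4 (2.84), the plasma glycoproteins Ahsg (fetuin-A, 2.48) and Lrg1 (2.33), the alarmin cytokine Il33 (2.22) and the chitinase-like protein Chil1 (2.03). Gfpt2, which makes the first committed step of hexosamine synthesis, rose by 2.03.

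The row with the largest change of all could not be given to 1 gene. Its symbol, one of those shortened in the file, reads Serpina, and by its accession 7 genes of the serpin A cluster fit, Serpina1a to Serpina1e, Serpina3m and Serpina3n. It read 12.70, 12.85 and 12.87 in the C26 hearts and 8.17, 8.13 and 8.12 in the NTB hearts, a rise of 4.66 ± 0.07 (adjusted p = 4.52e-13). These genes encode plasma protease inhibitors, and the named serpins Serpina3h (1.73) and Serpina3c (1.43), chosen after their values were seen, also rose. Serpina1a, 1 of the 7 that fit, also has a named row of its own, which was not called (-0.06 ± 0.11, adjusted p = 0.821). That row was low, with means of 4.88 in the C26 hearts and 4.93 in the NTB hearts.

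**Figure D1:**
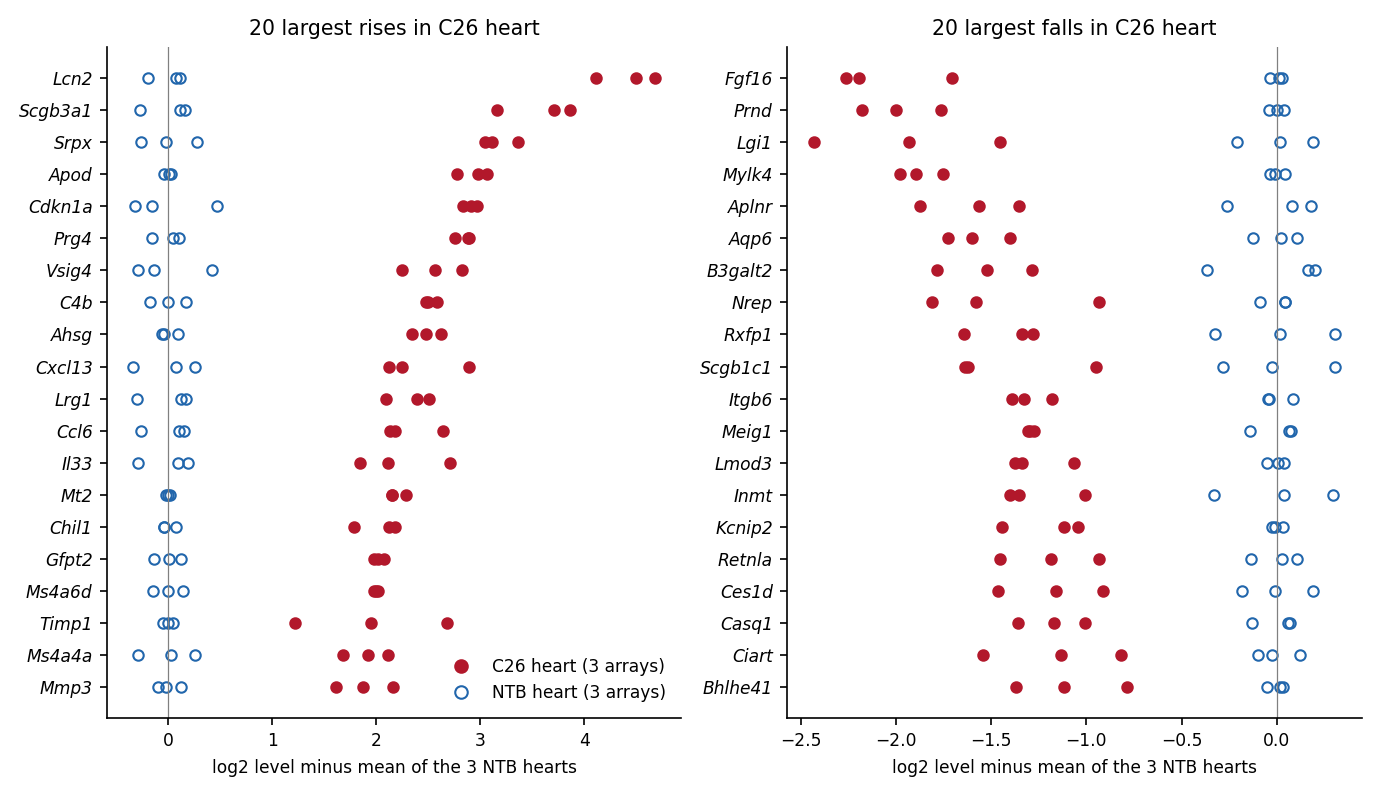
Log2 level of the 20 largest rises (left) and 20 largest falls (right) among named genes in each heart, with predicted genes and rows of unresolved symbol left out, with the mean of the 3 NTB hearts set to 0, for C26 hearts (filled) and NTB hearts (open). The 40 genes were taken only from called genes whose 3 C26 hearts lay apart from the 3 NTB hearts, so their separation follows from the choice. Timp1 has the widest spread of the C26 hearts among the rises.

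The 20 largest falls among the named genes included a growth factor, receptors, muscle proteins and clock genes. Fgf16, a fibroblast growth factor made by cardiac muscle, read 6.74, 6.26 and 6.19 in the C26 hearts and 8.48, 8.46 and 8.41 in the NTB hearts. It fell by 2.05 ± 0.13 (adjusted p = 6.57e-07), and no C26 heart reached the level of an NTB heart. Prnd, which encodes the prion-like protein doppel, read 5.20, 4.97 and 4.79 in the C26 hearts and 7.0, 6.97 and 6.93 in the NTB hearts and fell by 1.98 ± 0.12. Lgi1, a secreted leucine-rich protein known from the brain, read 6.61, 5.63 and 6.13 in the C26 hearts and 8.08, 8.25 and 7.85 in the NTB hearts and fell by 1.94 ± 0.19. The groups were separate in both genes. Aplnr, the receptor of apelin, and Rxfp1, the receptor of relaxin, fell by 1.60 ± 0.14 and 1.42 ± 0.15, and both peptides are known to act on the heart and its vessels. Mylk4, of the myosin light chain kinase family, fell by 1.87 ± 0.08, and its row carries an accession that RefSeq does not list for this gene, which is also true of Ms4a4a, Cd68, Ly6g and Cp below. The other leading falls were Aqp6 (-1.58), B3galt2 (-1.53), Nrep (-1.44), Scgb1c1 (-1.40), Itgb6 (-1.30), Meig1 (-1.29), Inmt (-1.25), Retnla (-1.19) and Ces1d (-1.18), with Lmod3, Kcnip2, Casq1, Ciart and Bhlhe41 described below. With the 12 arrays fitted together, Retnla was the 1 gene of these 40 that was not called (adjusted p = 0.0858).

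**Figure D2:**
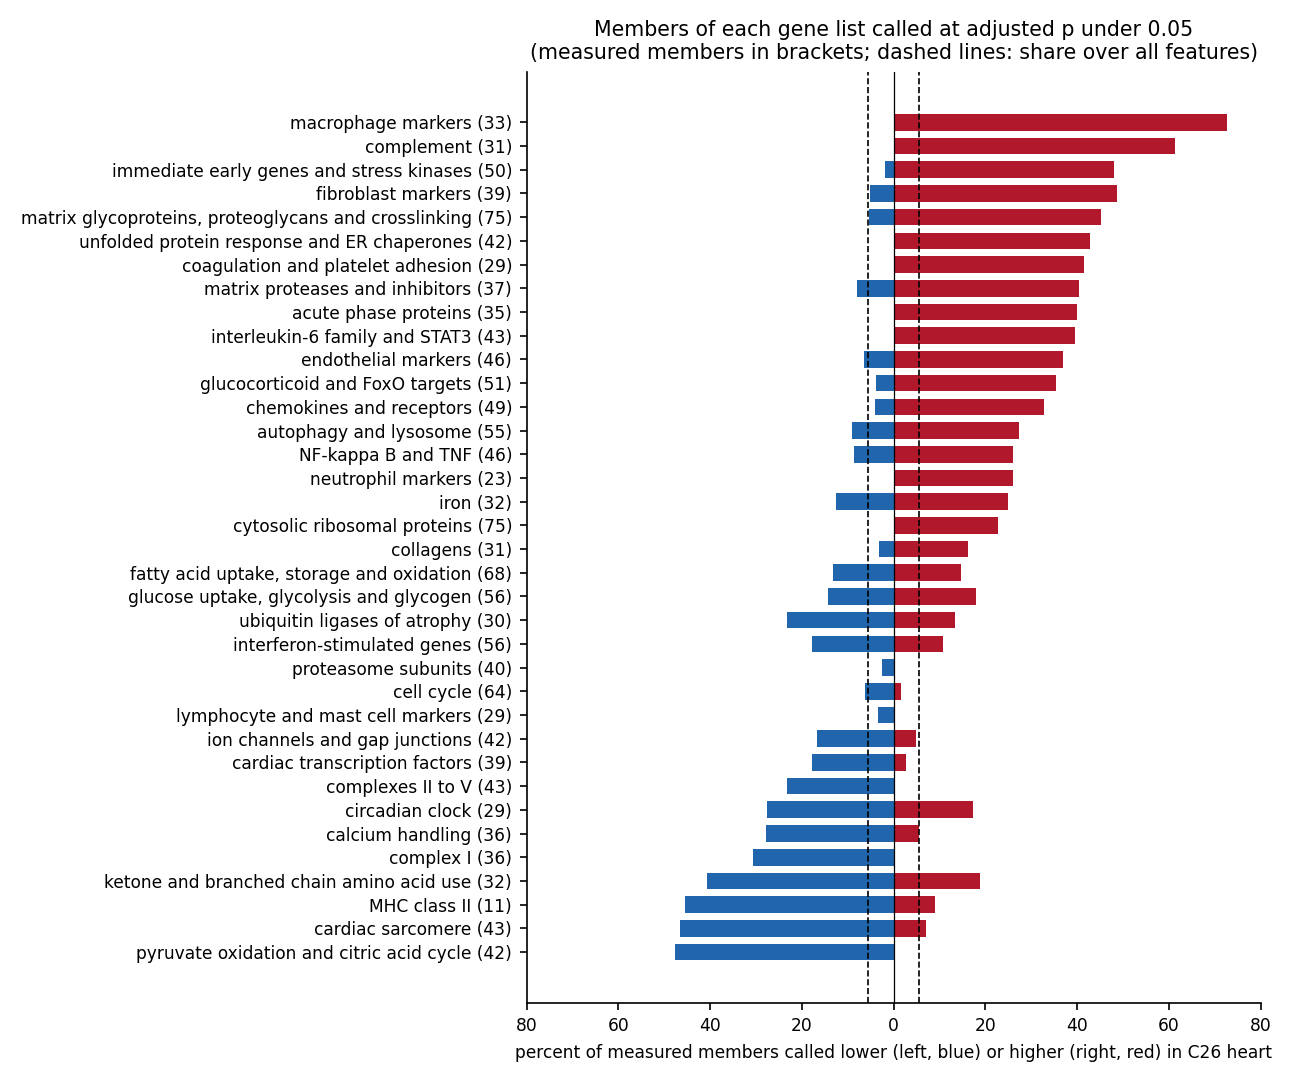
Percent of the measured members called higher (right) or lower (left) in C26 heart, for a chosen part of the 61 gene lists. Dashed lines are the share over all 21363 features (5.53% and 5.54%). The lists were chosen with earlier results of these data known. Macrophage markers and complement have the largest shares of rises, and pyruvate oxidation and the sarcomere the largest shares of falls.

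Acute phase proteins are made mainly by the liver, and their transcripts are also found at low levels elsewhere. Of 35 measured, 14 rose and 0 fell, against 5.53% and 5.54% of all features, with a median of 0.22 (10 rose with the 12 arrays). Hp (haptoglobin), which binds free haemoglobin, read 6.78, 6.74 and 7.14 in the C26 hearts and 5.28, 5.13 and 5.33 in the NTB hearts. The groups stood apart, and Hp rose by 1.64 ± 0.12 (adjusted p = 3.03e-06). Lbp, the lipopolysaccharide-binding protein, read 9.92, 9.56 and 9.56 in the C26 hearts and 8.08, 8.01 and 8.05 in the NTB hearts and rose by 1.63 ± 0.10 in the same way. The other large rises in the list were Lrg1 (2.33), Chil1 (2.03) and Timp1 (1.95). Orm1, a classical member, was not called (0.04, adjusted p = 0.927).

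Complement is a cascade of plasma proteins that marks cells and debris for uptake. Of 31 measured genes 19 rose and 0 fell, with a median of 0.84 against 0.005 over all features (15 rose with the 12 arrays). C3, the component on which the pathways converge, read 11.96, 11.93 and 12.10 in the C26 hearts and 10.59, 10.33 and 10.20 in the NTB hearts. It was 3.09-fold higher in C26 hearts (adjusted p = 3.00e-07), with no overlap. C4b, the fourth component, read 9.19, 9.11 and 9.09 in the C26 hearts and 6.78, 6.44 and 6.61 in the NTB hearts, 5.74-fold higher. The regulator Cfhr2 (1.30), the terminal component C7 (1.33) and the complement receptor Vsig4 of tissue macrophages (2.55) rose as well. Vsig4 read 8.32, 8.0 and 8.58 in the C26 hearts and 5.62, 5.47 and 6.17 in the NTB hearts, so that each C26 heart lay more than 1 log2 unit above the highest NTB heart.

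Macrophages are the most numerous immune cells of the healthy heart, and the resident cells carry scavenger receptors. Of 33 macrophage markers 24 rose and 0 fell, with a median of 0.70 (12 rose with the 12 arrays). The mean level of the list was 7.66 to 7.85 over the C26 hearts and 6.97 to 7.09 over the NTB hearts. Macrophage markers that fell numbered 1 without C26 heart 1 or NTB heart 1. Cd163, the scavenger receptor that takes up haptoglobin with haemoglobin, read 7.93, 7.87 and 7.97 in the C26 hearts and 6.52, 6.53 and 6.61 in the NTB hearts. The groups were far apart, at 1.37 ± 0.09 (adjusted p = 6.57e-07). Mrc1, the mannose receptor, rose by 1.39 ± 0.08, Lyve1, the hyaluronan receptor of resident macrophages and lymphatic vessels, by 1.58 ± 0.09, and F13a1 by 1.42 ± 0.09. The defining markers, named after their values were seen, rose too, with Adgre1 at 0.62, Cd68 at 0.98 and Csf1r, the growth factor receptor of the lineage, at 0.49. In whole tissue, more cells of a type and more RNA per cell cannot be told apart, and the same holds for fewer cells and less RNA. The membrane proteins Ms4a6d (2.00) and Ms4a4a (1.90), of a family that marks macrophages, were among the 20 largest rises of named genes. C1qa (1.16) and Ctss (1.01) belong to this list as well as to the complement or lysosome list, and the part of macrophage number in the changes of complement was not tested. Cd163, Adgre1, Csf1r and Ctss were not called with the 12 arrays (adjusted p up to 0.275).

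Of 23 neutrophil markers 6 (26.1%) rose, against 5.53% of all features, and 3 with the 12 arrays. The mean level of that list was 5.28 to 5.4 over the C26 hearts and 4.91 to 5.00 over the NTB hearts. The rises were led by Lcn2, which other cells also make, and by the chemokine receptor Cxcr2 (0.78). The defining neutrophil genes were not called, with S100a8 at 0.06 (adjusted p = 0.869), S100a9 at 0.19 (0.482) and Ly6g at 0.16 (0.507). Of 29 lymphocyte and mast cell markers 0 rose and 1 fell, the receptor tyrosine kinase Kit (-0.90), and falls numbered 2 without C26 heart 1 or C26 heart 3. Cd3e (0.20, adjusted p = 0.373), which marks T cells, was not called. Among red cell genes, which report on blood left in the tissue, neither the haemoglobin chain Hba-a1 (0.17, adjusted p = 0.436) nor Alas2 (0.44, 0.106), a haem synthesis enzyme of red cell precursors, was called.

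Chemokines are the secreted attractants of white cells. Of 49 ligands and receptors 16 rose and 2 fell, with a median of 0.17, or 0.10 without C26 heart 1 (12 rises and 0 falls with the 12 arrays). Cxcl13, which draws B cells, read 8.74, 8.86 and 9.51 in the C26 hearts and 6.28, 6.69 and 6.88 in the NTB hearts, a rise of 2.42 ± 0.18. Ccl6 read 10.04, 9.58 and 9.53 in the C26 hearts and 7.55, 7.14 and 7.50 in the NTB hearts and rose by 2.32 ± 0.14. In both, the lowest C26 heart stood well above the highest NTB heart. Cxcl14 (1.73), Ccl9 (1.72), Ccl8 (1.23) and Ppbp (1.57) rose too, and the last is a chemokine stored in platelets. Ccl2 (0.21, adjusted p = 0.561), the classical attractant of monocytes, and Cxcl1 (0.19, 0.361) were not called.

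Genes of platelets and clotting were called higher only in part. Of 29 coagulation and platelet adhesion genes 12 rose and 0 fell, with a median of 0.18 (7 rose with the 12 arrays). Pf4 (platelet factor 4) read 8.43, 8.55 and 8.35 in the C26 hearts and 7.62, 7.42 and 7.34 in the NTB hearts. It rose by 0.98 ± 0.10, and the platelet integrin subunit Itgb3 by 0.98 ± 0.13, in both cases with all C26 hearts above all NTB hearts. Clotting factor V (F5) rose by 0.97, thrombospondin 1 (Thbs1), a platelet and matrix protein, by 0.92, and the prothrombinase-like Fgl2 by 1.38. Hba-a1, the red cell gene given above, was not called.

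Interleukin-6 and its relatives signal through a shared receptor chain to the transcription factor STAT3, which induces its own inhibitor Socs3. Of 43 genes of this pathway 17 rose and 0 fell, with a median of 0.21 (11 rose with the 12 arrays). Among the receptors, Osmr, for oncostatin M, read 9.82, 9.91 and 9.90 in the C26 hearts and 8.11, 8.17 and 8.37 in the NTB hearts. It rose by 1.66 ± 0.08 (adjusted p = 1.23e-07), Il4ra, the interleukin-4 receptor chain, by 1.61 ± 0.16, and Il1r1, the interleukin-1 receptor, by 1.32 ± 0.10. Stat3 itself read 10.61, 10.72 and 10.71 in the C26 hearts and 9.83, 9.81 and 9.72 in the NTB hearts, 1.85-fold higher without overlap. Socs3 read 8.14, 7.73 and 7.82 in the C26 hearts and 6.82, 6.75 and 6.89 in the NTB hearts and rose by 1.07 ± 0.11 (adjusted p = 4.21e-05). The targets Myc (1.30) and Bcl3 (1.29), a nuclear partner of NF-kappa B, rose as well. Falls numbered 1 without NTB heart 3. The cytokines themselves were not called in heart, neither Il6 (0.11, adjusted p = 0.657) nor Tnf (-0.05, 0.870). The promoter of Socs3 is shown because STAT factors are known to act on it. The 250 bases before its start in the RefSeq table (GRCm38.p6, chr11:117969367-117969616, minus strand) hold 1 match, in capitals, to TTCNNNGAA on either strand, which begins 154 bases before the start.
Socs3: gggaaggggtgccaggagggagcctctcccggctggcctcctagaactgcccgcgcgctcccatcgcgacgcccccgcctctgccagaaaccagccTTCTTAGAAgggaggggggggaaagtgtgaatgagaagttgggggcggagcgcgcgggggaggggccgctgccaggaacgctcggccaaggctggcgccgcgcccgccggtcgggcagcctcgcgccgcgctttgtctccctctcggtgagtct
This motif was found in 6.81% of the 852 promoters of genes that rose, 6.25% of the 848 of genes that fell and 6.64% of all 15100 promoters searched, so that its share was close to that of all promoters in both groups.

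NF-kappa B and tumour necrosis factor genes moved in both directions. Of 46 measured 12 rose and 4 fell, with a median of 0.14 (8 and 1 with the 12 arrays). Tnfaip6, a hyaluronan-binding protein, rose by 1.26 ± 0.16, the endothelial adhesion molecule Selp by 1.11 ± 0.13, the inhibitory kinase Irak3 by 1.03 ± 0.10 and the adaptor Myd88 by 0.86 ± 0.10. Tnfaip8 fell by 0.83 ± 0.13. Myd88 was not called with the 12 arrays (adjusted p = 0.0586).

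Immediate early genes encode transcription factors that are switched on within minutes of a stimulus. Of 50 such genes and stress kinase partners 24 rose and 1 fell, with a median of 0.31. Fos read 6.95, 6.79 and 6.56 in the C26 hearts and 5.87, 5.81 and 5.63 in the NTB hearts. The C26 hearts all lay above the NTB hearts, at 0.99 ± 0.12 (adjusted p = 1.60e-04). Atf3 (0.96), Fosb (0.87), Cebpd (0.84) and Fosl2 (0.77) rose with it. The count was 15 without C26 heart 2, 14 without C26 heart 3 (with falls numbering 0 without C26 heart 2, C26 heart 3, NTB heart 1 or NTB heart 2) and 7 with the 12 arrays, where 0 fell. Such transcripts also answer to the minutes around tissue collection, and the labels do not record how long that took. Cebpd was not called with the 12 arrays (adjusted p = 0.0825).

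Interferon-stimulated genes moved in both directions. Of 56 measured 6 rose and 10 fell, with a median of -0.02 (4 and 5 with the 12 arrays). The falls were led by GTPases that defend cells against intracellular microbes and are induced by interferon-gamma. Gbp5 read 6.18, 5.75 and 5.77 in the C26 hearts and 6.99, 6.77 and 6.54 in the NTB hearts. No C26 heart reached an NTB heart, and Gbp5 fell by 0.86 ± 0.14 (adjusted p = 0.00162). Gbp3 (-0.93), Gbp4 (-0.93), Gbp7 (-0.86) and Tgtp1 (-1.04) fell too, while Gbp6 rose by 0.88. These GTPases are close copies of each other, and whether their probes cross-hybridise was not tested. Cxcl9, the chemokine named for its induction by interferon-gamma and chosen here after its value was seen, fell by 0.78 ± 0.15. Ifitm1 and Oas2, also chosen after their values were seen, rose by 0.82 and 0.86. Neither Ifng (-0.03, adjusted p = 0.942) nor Irf1 (-0.02, 0.922) was called. The promoter of Gbp7 (GRCm38.p6, chr3:142530086-142530335, plus strand, from RefSeq) is set beside that of Socs3 because it holds the same motif, TTCNNNGAA, at 106 and 87 bases before the start, in a gene that fell.
Gbp7: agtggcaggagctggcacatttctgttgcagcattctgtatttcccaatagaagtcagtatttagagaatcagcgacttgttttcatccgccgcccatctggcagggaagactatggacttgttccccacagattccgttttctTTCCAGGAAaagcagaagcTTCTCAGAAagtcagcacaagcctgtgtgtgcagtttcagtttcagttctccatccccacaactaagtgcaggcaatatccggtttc
At least 2 such matches were found in 0.3% of all promoters, 0.23% of those of genes that rose and 0.35% of those of genes that fell. Cxcl9 was not called with the 12 arrays (adjusted p = 0.0839).

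MHC class II molecules present antigen and are carried by macrophages, dendritic cells and B cells. Of 11 genes of the class II pathway 5 fell and 1 rose (0 fell and 0 rose with the 12 arrays). Cd74, the invariant chain that guides class II molecules, read 8.42, 8.0 and 7.86 in the C26 hearts and 9.37, 8.84 and 9.04 in the NTB hearts. Its groups did not overlap, and it fell by 0.99 ± 0.15 (adjusted p = 7.80e-04). H2-Aa, an alpha chain, read 7.65, 7.38 and 6.98 in the C26 hearts and 8.40, 8.28 and 7.98 in the NTB hearts and fell by 0.88 ± 0.15. H2-DMb2 (-0.59), H2-Ab1 (-0.57) and H2-Eb1 (-0.52) fell as well. The member that rose was Ctss (1.01), the protease that cuts the invariant chain and is also a macrophage lysosomal enzyme. Without C26 heart 3, 3 members fell. H2-Ab1 was not called without C26 heart 2, C26 heart 3 or NTB heart 2 (adjusted p up to 0.0652). H2-Eb1 was not called without C26 heart 3 or NTB heart 1 (adjusted p up to 0.0606). Cd74, H2-Aa, H2-DMb2, H2-Ab1, H2-Eb1 and Ctss were not called with the 12 arrays (adjusted p up to 0.561).

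Fibroblasts make the matrix of the heart. Of 39 fibroblast markers 19 rose and 2 fell, with a median of 0.37 (7 and 2 with the 12 arrays). The mean level of the list was 8.68 to 8.86 over the C26 hearts and 8.42 to 8.46 over the NTB hearts. Pi16, a marker of fibroblasts around vessels, read 8.97, 8.47 and 8.51 in the C26 hearts and 7.48, 7.28 and 7.30 in the NTB hearts and rose by 1.30 ± 0.12. The defining markers Pdgfra (0.54) and Dcn (0.39), named after their values were seen, rose without overlap. Fbln1 (1.09), Dpt (1.06), Htra3 (1.03) and the surface antigen Ly6a (0.88) rose as well. Their part in the changes of the matrix genes was not tested. Pdgfra and Dcn were not called with the 12 arrays (adjusted p up to 0.193).

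The matrix holds collagen fibres and the proteins that organise and crosslink them. Of 75 matrix glycoproteins, proteoglycans and crosslinking enzymes 34 rose and 4 fell, with a median of 0.31 (13 and 1 with the 12 arrays). Lox, which crosslinks collagen and elastin, read 6.73, 7.11 and 7.20 in the C26 hearts and 5.47, 5.52 and 5.66 in the NTB hearts. It rose by 1.47 ± 0.13 (adjusted p = 1.11e-05), with separate groups. The proteoglycan Vcan (versican) rose by 1.30 ± 0.14 and the hyaluronan synthase Has2 by 1.23 ± 0.21. Of 31 collagens 5 rose and 1 fell, with a median of 0.09, which was 0.04 without C26 heart 1 and 0.15 without NTB heart 1. Col3a1 rose by 0.79 ± 0.13, Col6a3 by 0.76 ± 0.14 and Col1a1 by 0.62 ± 0.13. Postn (periostin), which activated fibroblasts make in the injured heart, was not called (-0.04, adjusted p = 0.927). The count of collagens that rose was 3 without C26 heart 1, NTB heart 2 or NTB heart 3, and 1 with the 12 arrays. Collagens that fell numbered 0 without C26 heart 2, C26 heart 3, NTB heart 1 or NTB heart 2, and 0 with the 12 arrays. Col3a1 and Col1a1 were not called with the 12 arrays (adjusted p up to 0.311).

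Proteases and the inhibitors that hold them in check set how fast the matrix is turned over. Of 37 measured 15 rose and 3 fell, with a median of 0.28 (10 and 1 with the 12 arrays). Timp1, an inhibitor of matrix metalloproteinases, read 8.17, 6.71 and 7.44 in the C26 hearts and 5.54, 5.49 and 5.44 in the NTB hearts. It rose by 1.95 ± 0.26, and its C26 hearts spread over more than 1 log2 unit while the NTB hearts lay close together. Mmp3 (stromelysin 1) read 7.46, 7.20 and 7.75 in the C26 hearts and 5.56, 5.49 and 5.71 in the NTB hearts and rose by 1.88 ± 0.13. The gelatinase Mmp2 (1.33), the membrane enzyme Mmp14 that activates it (1.09), Mmp19 (1.68) and Adamts1 (1.03) also rose. In TGF-beta, activin and BMP signalling 9 of 53 rose and 1 fell (2 and 1 with the 12 arrays). The receptor Tgfbr2 rose by 1.15 ± 0.08 and Inhba, the activin subunit, by 0.69 ± 0.15, while the ligand Bmp4 fell by 0.83 ± 0.10 and Tgfb1 was not called (-0.05, adjusted p = 0.884).

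Endothelial genes moved in both directions. Of 46 markers 17 rose and 3 fell, with a median of 0.10 (5 and 2 with the 12 arrays). The defining markers, named after their values were seen, went apart, with Pecam1 at 0.27 ± 0.07 and Cdh5 at -0.24 ± 0.07. Vwf, the platelet-binding factor of the vessel wall, read 8.33, 8.47 and 8.51 in the C26 hearts and 7.63, 7.63 and 7.37 in the NTB hearts. Its groups were separate and it rose by 0.89 ± 0.10 (adjusted p = 5.95e-05). Car4, a carbonic anhydrase of capillaries, and Plvap, of fenestrae, rose by 0.83 and 0.71. Aplnr read 7.27, 6.74 and 7.06 in the C26 hearts and 8.80, 8.70 and 8.36 in the NTB hearts, lower in each C26 heart, and its ligand Apln, chosen after its value was seen, fell by 0.57 ± 0.10. Of 56 angiogenesis and hypoxia genes 13 rose and 12 fell, among them the placental growth factor Pgf (1.09), the mitophagy receptor Bnip3 (0.83) and Fgf2 (0.69) upward and Angpt2 (-0.68), chosen after its value was seen, downward (5 and 4 with the 12 arrays). Of 23 pericyte and smooth muscle markers 2 rose and 3 fell, with Smtn at -0.64, and the rises numbered 1 without C26 heart 2, NTB heart 1, NTB heart 2 or NTB heart 3 (1 and 1 with the 12 arrays). Pecam1 was not called without C26 heart 1, C26 heart 2, C26 heart 3, NTB heart 1 or NTB heart 3 (adjusted p up to 0.125). Cdh5 was not called whichever heart was left out (adjusted p up to 0.161). Pecam1, Cdh5, Car4 and Fgf2 were not called with the 12 arrays (adjusted p up to 0.502).

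Receptors and enzymes of adrenergic and cyclic nucleotide signalling, which set the force and rate of the heart, moved in both directions. Of 54 measured 11 rose and 4 fell (3 and 3 with the 12 arrays). Adra1a, the alpha-1A adrenergic receptor, read 7.85, 7.56 and 7.56 in the C26 hearts and 8.47, 8.31 and 8.33 in the NTB hearts and fell by 0.72 ± 0.10. Agtr1a, the angiotensin II receptor, fell by 0.73 ± 0.08, with no overlap in either gene. Prkar2b, a regulatory subunit of protein kinase A, rose by 1.17 ± 0.16, the phosphodiesterase Pde3b by 0.77 ± 0.15 and the G protein regulator Rgs2 by 0.75 ± 0.12. Adrb1, the main beta-adrenergic receptor of the heart, was not called (-0.03, adjusted p = 0.931). Prkar2b and Pde3b were not called with the 12 arrays (adjusted p up to 0.377).

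Glucocorticoids act through a nuclear receptor, and FoxO factors are held back by insulin and growth factor signalling. Of 51 of their known targets 18 rose and 2 fell, with a median of 0.24 (10 and 1 with the 12 arrays). Fkbp5, the chaperone partner of the glucocorticoid receptor and one of its steadiest targets, read 8.28, 8.04 and 8.27 in the C26 hearts and 6.73, 6.62 and 6.95 in the NTB hearts. The groups were more than 1 log2 unit apart, and Fkbp5 was 2.69-fold higher (adjusted p = 2.86e-06). Map3k6 rose by 1.27 ± 0.11, Fam107a by 1.26 ± 0.16 and Errfi1, an inhibitor of the epidermal growth factor receptor, by 1.08 ± 0.14. Falls numbered 1 without NTB heart 1 or NTB heart 3. The median of the list was 0.14 without C26 heart 1 and 0.15 without NTB heart 2. Foxo1 was not called (0.19, adjusted p = 0.190). In insulin and IGF signalling 6 of 35 rose and 4 fell. Igf1 read 8.85, 8.46 and 8.84 in the C26 hearts and 7.74, 7.59 and 7.57 in the NTB hearts and rose by 1.08 ± 0.11. Its binding protein Igfbp4 read 9.63, 9.61 and 9.64 in the C26 hearts and 8.50, 8.10 and 8.12 in the NTB hearts and rose by 1.39 ± 0.10. In neither did the groups overlap. Grb14, an inhibitor of the insulin receptor, fell by 0.70 ± 0.07. The count of rises in the last list was 3 without C26 heart 2, 2 without NTB heart 3 and 2 with the 12 arrays, where 2 fell.

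The ubiquitin ligases that lead skeletal muscle atrophy were not called in heart. Fbxo32 (atrogin-1) read 9.72, 9.32 and 9.24 in the C26 hearts and 9.71, 9.47 and 9.49 in the NTB hearts. The groups overlapped (-0.13 ± 0.11, adjusted p = 0.581). Trim63 (MuRF1) read 9.0, 8.90 and 9.24 in the C26 hearts and 9.19, 9.02 and 9.13 in the NTB hearts, and overlapped as well (-0.07 ± 0.09, 0.727). Of 30 ligases of muscle 4 rose and 7 fell. Asb2 fell by 0.90 ± 0.09 and Fbxl22, a cardiac F-box protein, by 0.73 ± 0.11, while Cblb rose by 0.66 ± 0.10 and Fbxo31 by 0.59 ± 0.07. The falls numbered 4 without C26 heart 3, NTB heart 2 or NTB heart 3, and 2 with the 12 arrays, where 2 rose. Of 40 proteasome subunits 0 rose and 1 fell, Psme4 (-0.36), with a median of -0.04, and the share called was below the 11.1% of all features. Of 33 ubiquitin and conjugation genes 1 (3.0%) rose and 3 (9.1%) fell, against 5.53% and 5.54% of all features. Of 17 immunoproteasome and antigen processing genes 0 rose and 2 (11.8%) fell. Conjugation genes that rose numbered 2 without C26 heart 1 and 0 without C26 heart 3, and proteasome subunits that fell 2 without C26 heart 2. With the 12 arrays no member of these last 3 lists was called. Mstn (myostatin) was not called (-0.02, adjusted p = 0.962). Psme4 was not called with the 12 arrays (adjusted p = 0.0930).

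Autophagy delivers worn cell parts to the lysosome. Of 55 measured 15 rose and 5 fell, with a median of 0.10 (4 and 0 with the 12 arrays). Atg13, a subunit of the kinase complex that starts autophagy, rose by 1.03 ± 0.09 and the mitophagy receptor Bnip3 by 0.83 ± 0.10. The cathepsins Ctss (1.01), Ctsl (0.79), Ctsk (0.76) and Ctsz (0.71) made up the rest of the leading rises. Ctss is a macrophage marker too, the macrophage list rose in 24 of 33, and its part in the cathepsin rises was not tested. The falls numbered 3 without C26 heart 1, 2 without C26 heart 3 or NTB heart 3 and 1 without NTB heart 2. Ctss and Ctsk were not called with the 12 arrays (adjusted p up to 0.140).

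**Figure D3:**
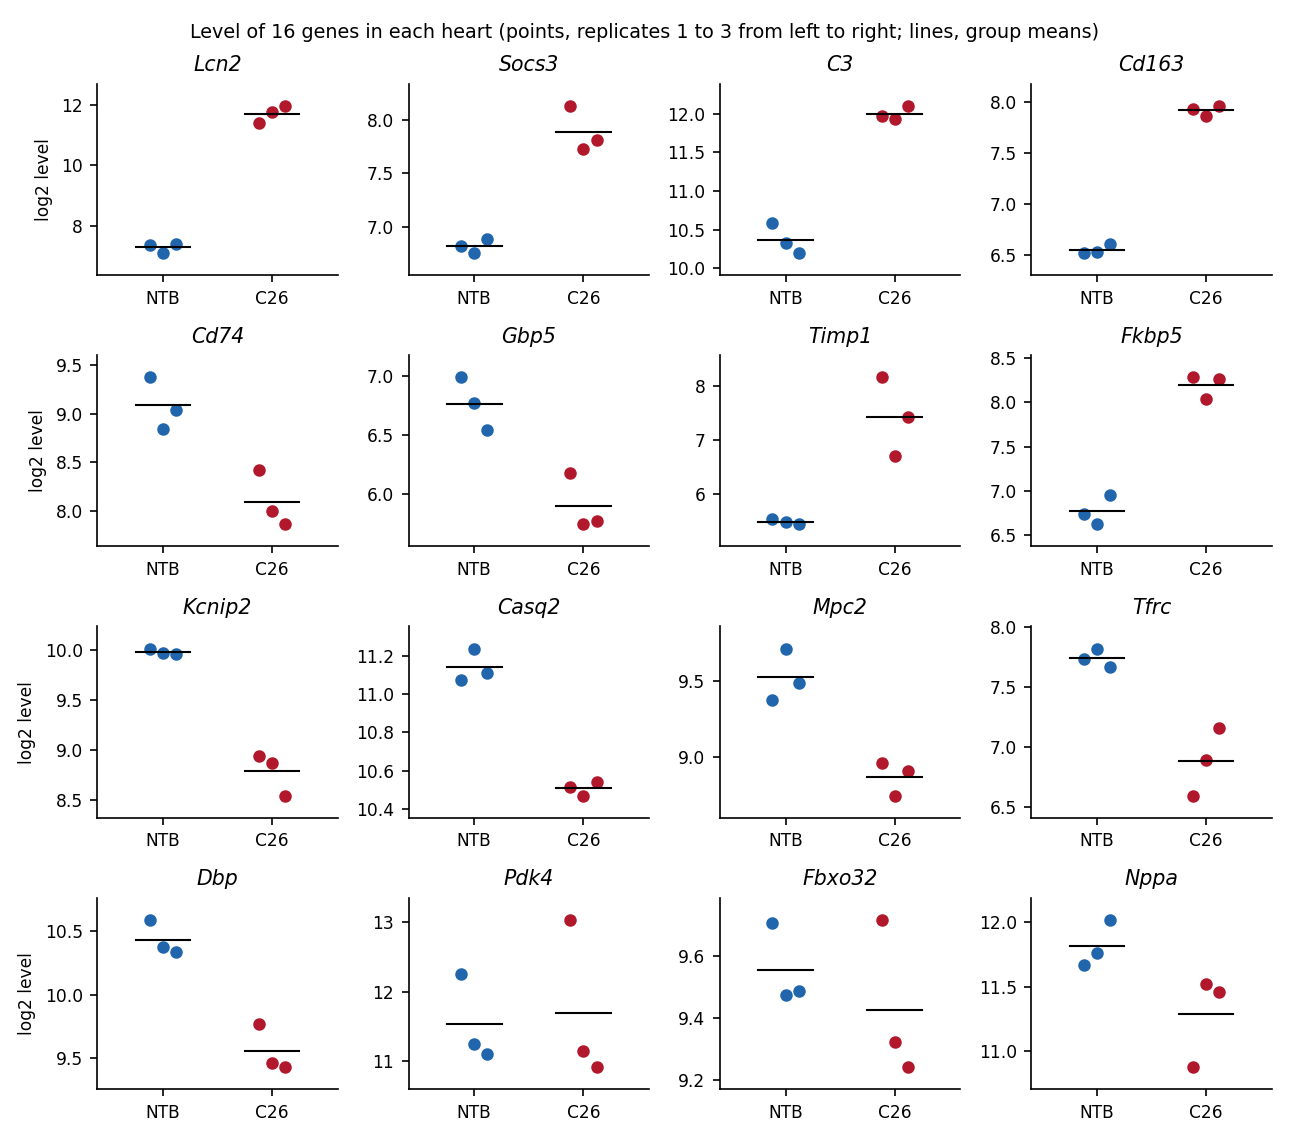
Log2 level of 16 genes in each NTB heart (blue) and C26 heart (red), replicates 1 to 3 from left to right, with lines at the group means. Lcn2, Cd163 and Kcnip2 show wide gaps between the groups, Fbxo32 and Pdk4 overlap, and replicate 1 is the highest heart of both groups for Pdk4.

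Metallothioneins are small proteins that bind zinc and copper and are induced by metals and glucocorticoids. Mt2 read 13.63, 13.50 and 13.50 in the C26 hearts and 11.34, 11.32 and 11.36 in the NTB hearts. The 3 hearts of each group lay close together, and Mt2 was 4.59-fold higher in C26 hearts (adjusted p = 2.52e-10). Mt1 read 12.37, 12.27 and 12.32 in the C26 hearts and 10.56, 10.44 and 10.33 in the NTB hearts, 3.67-fold higher. Of 16 metallothionein and zinc genes 4 rose and 0 fell, and a row that is either Slc39a11 or Slc39a14, both zinc importers by family, rose by 1.04 ± 0.08. The rises in the list numbered 2 without C26 heart 3, and 2 with the 12 arrays. The 250 bases before the start of Mt2 (GRCm38.p6, chr8:94172368-94172617, plus strand, from RefSeq) are shown because metal-responsive transcription factor 1 is known to bind this promoter. They hold 3 matches, in capitals, to TGCACNC or TGCGCNC on either strand, which begin 223, 128 and 50 bases before the start.
Mt2: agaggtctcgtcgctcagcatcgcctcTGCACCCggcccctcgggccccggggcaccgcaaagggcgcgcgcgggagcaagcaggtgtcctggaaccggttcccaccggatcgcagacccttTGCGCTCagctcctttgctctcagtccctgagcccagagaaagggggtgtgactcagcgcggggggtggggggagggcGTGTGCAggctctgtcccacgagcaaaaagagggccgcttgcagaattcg
At least 3 matches were found in 1.75% of all promoters, 1.53% of those of genes that rose and 1.77% of those of genes that fell.

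Iron genes moved in both directions. Of 32 measured 8 rose and 4 fell (5 and 1 with the 12 arrays). Tfrc, the transferrin receptor through which cells take up iron, read 6.59, 6.90 and 7.15 in the C26 hearts and 7.73, 7.82 and 7.67 in the NTB hearts. All C26 hearts lay below all NTB hearts, and Tfrc fell by 0.86 ± 0.13 (adjusted p = 6.81e-04). Transferrin (Trf) rose by 1.07 ± 0.09, the copper-dependent ferroxidase ceruloplasmin (Cp) by 0.82 ± 0.08, haem oxygenase 1 (Hmox1), which releases iron from haem, by 0.77 ± 0.09, and the metalloreductase Steap4 by 0.55 ± 0.09. The iron hormone hepcidin (Hamp) was not called (-0.28, adjusted p = 0.731). Tfrc is also high in immature red cells. In the red cell list 2 of 14 fell, Tfrc and Fech (-0.37), and 0 rose, with rises numbering 3 without C26 heart 1 and 1 without NTB heart 1. With the 12 arrays 1 of the list fell. Fech was not called with the 12 arrays (adjusted p = 0.524).

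The sarcomere is the contractile unit of the cardiomyocyte. Of 43 sarcomere genes 20 fell and 3 rose, with a median of -0.31 (7 and 0 with the 12 arrays). The largest fall in the list was that of Tcap (telethonin), which caps titin at the Z-disc. Tcap read 9.15, 8.61 and 8.98 in the C26 hearts and 9.81, 9.42 and 9.74 in the NTB hearts, 1.67-fold lower without overlap (adjusted p = 0.00269). Myl2, the ventricular regulatory light chain, read 12.09, 12.55 and 12.44 in the C26 hearts and 12.98, 13.04 and 12.98 in the NTB hearts and fell by 0.64 ± 0.09. The Z-disc proteins Synpo2l (-0.69) and Nebl (-0.57), the M-band protein Myom2 (-0.60) and the thick filament protein Mybpc3 (-0.55) fell too. Acta1, the skeletal actin that the stressed heart often raises, fell by 0.54 ± 0.08. The heavy chains were not called. Myh6 read 12.81, 12.90 and 12.77 in the C26 hearts and 12.98, 12.97 and 12.99 in the NTB hearts, with separate groups (-0.15 ± 0.05, adjusted p = 0.0960). Myh7, the slow heavy chain, read 9.98, 11.29 and 10.57 in the C26 hearts and 9.66, 10.03 and 10.17 in the NTB hearts, with overlapping groups (0.66 ± 0.24, 0.112). C26 heart 2 was the highest and C26 heart 1 lay within the NTB hearts. Lmod3, an actin filament nucleator known from skeletal muscle, outside this list and among the 20 largest falls, read 7.96, 8.0 and 8.28 in the C26 hearts and 9.29, 9.35 and 9.38 in the NTB hearts and fell by 1.26 ± 0.09. No called member of the list reached 2-fold, and its mean level was 10.66 to 10.83 over the C26 hearts and 10.99 to 11.06 over the NTB hearts. Without C26 heart 1 the median change was -0.19. The rises among sarcomere genes numbered 5 without C26 heart 1 and 1 without C26 heart 2 or NTB heart 3. Myl2 was not called with the 12 arrays (adjusted p = 0.239).

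Calcium released from the sarcoplasmic reticulum triggers each beat. Of 36 calcium handling genes 10 fell and 2 rose, with a median of -0.10 (4 and 1 with the 12 arrays). Casq2, the calcium store protein of the cardiac reticulum, read 10.51, 10.47 and 10.54 in the C26 hearts and 11.07, 11.24 and 11.11 in the NTB hearts. Its groups were far apart for their spread, and it fell by 0.63 ± 0.07 (adjusted p = 4.51e-05). The skeletal isoform Casq1 fell by 1.18 ± 0.10, and the luminal partner Hrc by 0.66 ± 0.10. Camk2g and Camk2d, kinases that phosphorylate the release channel and phospholamban, fell by 0.65 ± 0.08 and 0.62 ± 0.07. Tmem38b, a potassium channel of the reticulum membrane, rose by 1.19 ± 0.07. The calcium pump Atp2a2 (0.04, adjusted p = 0.660), its regulator Pln (-0.08, 0.419) and the release channel Ryr2 (-0.01, 0.944) were not called. Rises in this list numbered 1 without C26 heart 1, NTB heart 1 or NTB heart 3. Casq2 and Camk2g were not called with the 12 arrays (adjusted p up to 0.172).

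Among ion channels the largest change was that of Kcnip2 (KChIP2), the subunit that cardiac cells need for the transient outward potassium current. Kcnip2 read 8.94, 8.87 and 8.54 in the C26 hearts and 10.02, 9.98 and 9.96 in the NTB hearts. The NTB hearts lay close together and each C26 heart lay 1 log2 unit or more below the lowest of them, a fall of 1.20 ± 0.10 (2.30-fold, adjusted p = 5.22e-06). Of 42 channel and gap junction genes 7 fell and 2 rose. The calcium-activated channel Kcnn2 fell by 0.68 ± 0.10 and the pacemaker channel Hcn4 by 0.60 ± 0.09. Kcnd2, a pore subunit that pairs with Kcnip2 and that was chosen after its value was seen, fell by 0.39 ± 0.11. The gap junction gene Gja1 (0.04, adjusted p = 0.856) was not called. The falls numbered 4 without C26 heart 2 or NTB heart 3, and 3 with the 12 arrays, where 1 rose. Kcnd2 was not called without C26 heart 1, C26 heart 2, NTB heart 1, NTB heart 2 or NTB heart 3 (adjusted p up to 0.142). Kcnd2 was not called with the 12 arrays (adjusted p = 0.282).

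Natriuretic peptides are released by strained or failing heart muscle. Nppa (atrial natriuretic peptide) read 10.88, 11.52 and 11.46 in the C26 hearts and 11.67, 11.76 and 12.02 in the NTB hearts. It was lower in C26 hearts, by 0.53 ± 0.14 (adjusted p = 0.0300), and C26 heart 1 was the lowest. Nppb (brain natriuretic peptide) overlapped between groups (-0.01 ± 0.19, 0.984). Corin, the protease that activates the first of these peptides, read 11.21, 10.92 and 11.00 in the C26 hearts and 10.46, 10.44 and 10.46 in the NTB hearts and rose by 0.59 ± 0.08, and Furin, which processes many precursors, rose by 0.54 ± 0.09. Nppa is also a marker of the atria, whose share of a whole heart varies with dissection. Of 19 atrial genes 5 fell and 4 rose, with a median of -0.07, and the atrial light chain Myl7 was not called (-0.45, adjusted p = 0.403). The part of the atria in the fall of Nppa was not tested. Falls among atrial genes numbered 2 without NTB heart 2 or NTB heart 3, and rises 2 without C26 heart 2, C26 heart 3 or NTB heart 2 and 1 without NTB heart 1 (3 and 1 with the 12 arrays). In the list of natriuretic peptides and cardiac stress 8 of 30 rose and 4 fell, led by Timp1, Fhl1 (0.97) and Lgals3 (galectin 3, 0.73). The falls numbered 2 without NTB heart 3, and with the 12 arrays 4 rose and 1 fell. Ccn2, a stress and matrix signal, rose by 0.57 ± 0.07. Of 39 cardiac transcription factors 7 fell, led by Hopx (-0.80) and Gata4 (-0.41), and 1 rose, with 1 falling and 0 rising with the 12 arrays. Falls of transcription factors numbered 4 without C26 heart 2, NTB heart 1 or NTB heart 2, and rises 3 without C26 heart 1 and 0 without C26 heart 3, NTB heart 1, NTB heart 2 or NTB heart 3. Nppa was not called without NTB heart 2 or NTB heart 3 (adjusted p up to 0.130). Nppa, Corin, Ccn2, Hopx and Gata4 were not called with the 12 arrays (adjusted p up to 0.495).

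**Figure D4:**
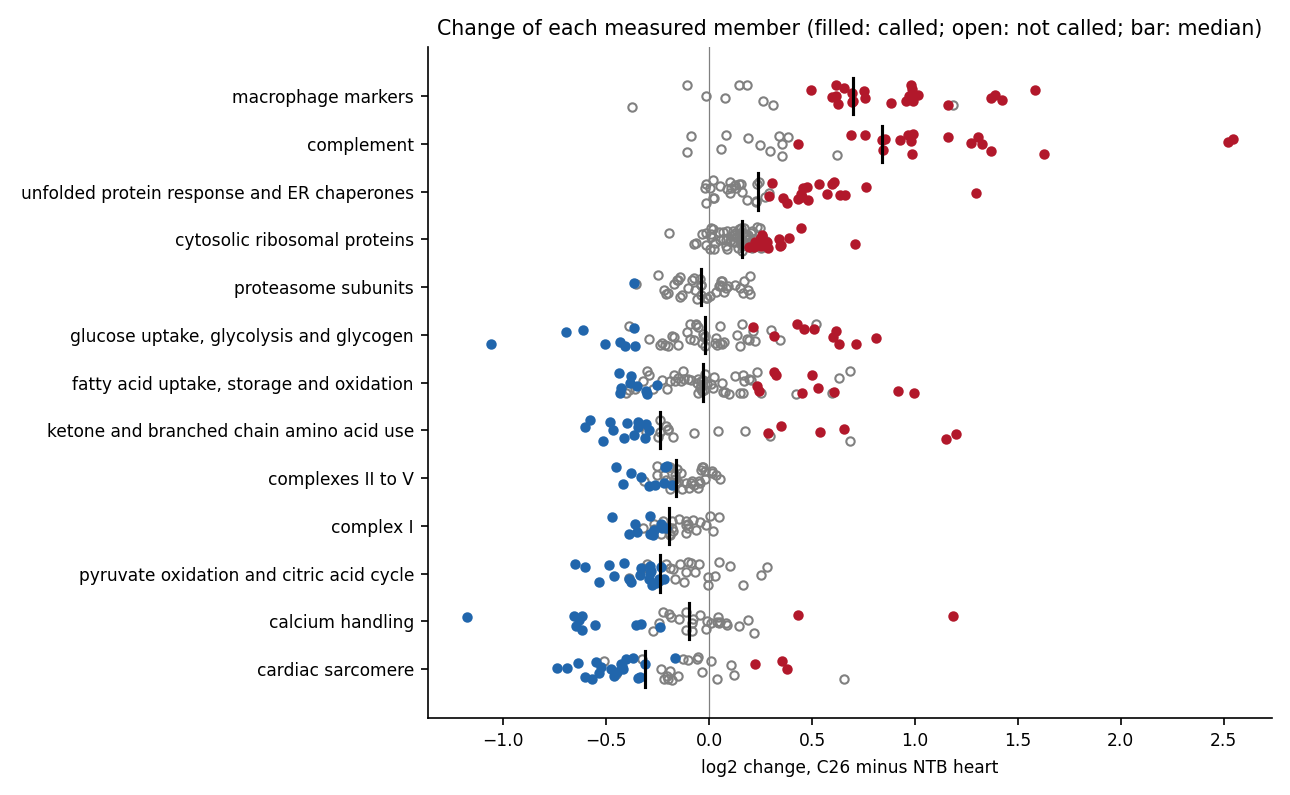
Log2 change, C26 minus NTB heart, of each measured member of 13 gene lists, filled where called and open where not, with a bar at each median. Members of the citric acid cycle, respiratory chain and sarcomere lie mostly below 0, macrophage and complement genes above 0, and proteasome subunits around 0.

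Pyruvate oxidation and the citric acid cycle feed the respiratory chain of the mitochondrion. Of 42 genes 20 fell and 0 rose, with a median of -0.24. Mpc2, a subunit of the carrier that brings pyruvate into the mitochondrion, read 8.96, 8.75 and 8.91 in the C26 hearts and 9.37, 9.71 and 9.48 in the NTB hearts. It fell by 0.65 ± 0.10 (adjusted p = 6.90e-04), and the groups were separate. The aspartate-glutamate carrier Slc25a13 fell by 0.60 ± 0.07, the pyruvate dehydrogenase phosphatase Pdp1 by 0.54 ± 0.08, and the cycle enzymes Suclg1, Dlst and Sucla2 by 0.49 ± 0.07, 0.46 ± 0.07 and 0.41 ± 0.08. The changes were small and of one sign, and none of the called members reached 2-fold. The falls numbered 12 without C26 heart 3, 13 without NTB heart 1 or NTB heart 3 (with 1 rise without C26 heart 1), and 2 with the 12 arrays. Pdk4, the kinase that blocks pyruvate oxidation during fasting, read 13.03, 11.15 and 10.92 in the C26 hearts and 12.25, 11.25 and 11.11 in the NTB hearts. C26 heart 1 and NTB heart 1 stood above the others of their group, and Pdk4 was not called (0.16 ± 0.43, adjusted p = 0.878). Mpc2, Pdp1, Dlst and Sucla2 were not called with the 12 arrays (adjusted p up to 0.195).

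The respiratory chain turns the products of the cycle into ATP. Of 36 complex I subunits 11 fell and 0 rose, with a median of -0.20. Ndufs4 read 11.20, 11.27 and 11.32 in the C26 hearts and 11.55, 12.01 and 11.65 in the NTB hearts and fell by 0.47 ± 0.10 (adjusted p = 0.00721), without overlap. Ndufs8 (-0.39) and Ndufs5 (-0.35) followed. Of 43 genes of complexes II to V 10 fell and 0 rose, with a median of -0.16, led by Cox7a1 (-0.45), the muscle form of a cytochrome oxidase subunit, and Uqcrfs1 (-0.38). The falls in complex I numbered 7 without C26 heart 1, C26 heart 2 or NTB heart 2, 4 without NTB heart 1 and 6 without NTB heart 3. Those in complexes II to V numbered 4 without C26 heart 3 or NTB heart 1 and 5 without NTB heart 3. With the 12 arrays 0 and 0 fell. Of 33 genes of mitochondrial biogenesis and dynamics 7 fell, among them the fusion gene Opa1 (-0.44), and 1 rose, the uncoupling protein Ucp2 (0.95 ± 0.17), which macrophages also make (0 fell and 1 rose with the 12 arrays). These falls numbered 4, 3, 2 and 3 without C26 heart 2, C26 heart 3, NTB heart 1 and NTB heart 2. Ppargc1a, the coactivator that drives mitochondrial biogenesis, was not called (0.02, adjusted p = 0.904). Ndufs4, Ndufs8, Ndufs5, Cox7a1, Uqcrfs1 and Opa1 were not called with the 12 arrays (adjusted p up to 0.633).

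Branched chain amino acids and ketone bodies are fuels of the heart. Of 32 measured 13 fell and 6 rose, with a median of -0.24. Transporters of amino acids in the plasma membrane were among the rises, with Slc3a2, the heavy chain of the large neutral amino acid carrier, at 1.20 ± 0.08, Slc7a8 at 1.15 ± 0.11 and Slc43a1 at 0.66 ± 0.09. Slc3a2 read 11.37, 11.61 and 11.47 in the C26 hearts and 10.27, 10.20 and 10.37 in the NTB hearts, with no overlap. Mitochondrial enzymes were among the falls, with Ppm1k, the phosphatase that activates branched chain ketoacid dehydrogenase, at -0.61 ± 0.09, and Mccc2, of leucine breakdown, at -0.58 ± 0.09. The falls numbered 7 without NTB heart 1, and 1 with the 12 arrays, where 3 rose. Slc43a1 and Mccc2 were not called with the 12 arrays (adjusted p up to 0.148).

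Glucose and fatty acid genes moved in both directions. Of 56 genes of glucose uptake, glycolysis and glycogen 10 rose and 8 fell, with a median of -0.02 (5 and 3 with the 12 arrays). Slc2a3, a glucose transporter known from neurons and blood cells, rose by 0.72 ± 0.13, Phka1, a subunit of phosphorylase kinase, by 0.81 ± 0.08 and G6pdx, the entry enzyme of the pentose phosphate pathway, by 0.63 ± 0.11. The muscle phosphoglycerate mutase Pgam2 fell by 0.69 ± 0.08 and the muscle enolase Eno3 by 0.62 ± 0.06. The insulin-regulated transporter Slc2a4 was not called (-0.17, adjusted p = 0.206). Of 68 fatty acid genes 10 rose and 9 fell, with a median of -0.03. The lipid droplet protein Plin2 read 11.18, 10.55 and 10.23 in the C26 hearts and 9.94, 9.53 and 9.50 in the NTB hearts and rose by 0.99 ± 0.19, and the desaturase Scd1 rose by 0.92 ± 0.15, while Cpt1b, the muscle enzyme of fatty acid entry into mitochondria, was not called (-0.04, adjusted p = 0.783). Without C26 heart 1, 19 fatty acid genes fell, and C26 heart 1 is the heart with the highest Pdk4. The falls numbered 5 without C26 heart 2 or NTB heart 1 and 4 without C26 heart 3, and the rises 6 without C26 heart 3 or NTB heart 2. With the 12 arrays 1 rose and 0 fell. Of 20 adipocyte markers 4 rose and 0 fell, with Scd1 among them, and the defining Adipoq (0.26, adjusted p = 0.361) and Plin1 (0.13, 0.634) were not called. Adipocyte markers that rose numbered 7 without C26 heart 1, and 0 with the 12 arrays. Scd1 was not called with the 12 arrays (adjusted p = 0.349).

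The unfolded protein response raises the folding capacity of the endoplasmic reticulum. Of 42 of its genes 18 rose and 0 fell, with a median of 0.24 (6 rose with the 12 arrays). Sdf2l1, a chaperone cofactor, read 8.66, 9.50 and 9.41 in the C26 hearts and 8.02, 7.82 and 7.83 in the NTB hearts. It rose by 1.30 ± 0.17 with separate groups (adjusted p = 3.20e-04). The cochaperone Dnajc3 (0.76), the secreted factor Manf (0.66) and the transcription factor Xbp1 (0.63) rose too, while Hspa5 (BiP), the main chaperone, was not called (0.23, adjusted p = 0.0763). Of 50 targets of ATF4, the factor induced by amino acid shortage, 13 rose and 0 fell, with Slc3a2, Atf3 and the glutathione-degrading Chac1 (0.77) in front, and the count was 8 without C26 heart 3, 7 without NTB heart 2 and 4 with the 12 arrays. The stress cytokines Gdf15 (0.16, adjusted p = 0.590) and Fgf21 (-0.24, 0.372) were not called. Falls of ATF4 targets numbered 1 without C26 heart 1. Xbp1 and Chac1 were not called with the 12 arrays (adjusted p up to 0.286).

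Some cytosolic ribosomal protein genes were called higher. Of 75 measured 17 rose and 0 fell, with a median of 0.16, led by Rpl3 (0.71 ± 0.09). This count moved with single hearts, to 10, 6, 9, 7 and 5 without C26 heart 2, C26 heart 3, NTB heart 1, NTB heart 2 and NTB heart 3, and to 1 with the 12 arrays. Of 66 ribosome biogenesis genes 2 (3.0%) rose, Myc among them, and 1 (1.5%) fell, against 5.53% and 5.54% of all features. The rises numbered 4 without C26 heart 1 and 1 without C26 heart 2, C26 heart 3, NTB heart 2 or NTB heart 3 (1 and 0 with the 12 arrays). Of 48 translation and mTORC1 genes 6 rose and 1 fell, the cap-binding Eif4e (-0.46 ± 0.08), with 1 to 3 rises without C26 heart 2, C26 heart 3, NTB heart 1, NTB heart 2 or NTB heart 3, and falls numbering 2 without C26 heart 3 or NTB heart 3 (0 and 0 with the 12 arrays). Of 43 heat shock and chaperone genes 5 fell and 1 rose. The small heat shock gene Hspb3 fell by 0.81 ± 0.13 and the receptor cochaperone Fkbp4 by 0.72 ± 0.07, and 3 fell without NTB heart 1 or NTB heart 2, while rises numbered 3 without C26 heart 1 and 0 without C26 heart 2, C26 heart 3, NTB heart 1, NTB heart 2 or NTB heart 3 (2 fell and 0 rose with the 12 arrays). Of 55 antioxidant genes 12 rose and 8 fell, with Mgst1, a membrane glutathione transferase, at 1.30 ± 0.12 and the plasma enzyme Gpx3 at 0.84 ± 0.10, while the NRF2 target Nqo1 was not called (-0.22, adjusted p = 0.136). These falls numbered 3 to 5 without C26 heart 2, C26 heart 3, NTB heart 1, NTB heart 2 or NTB heart 3, and with the 12 arrays 6 antioxidant genes rose and 1 fell. Eif4e was not called with the 12 arrays (adjusted p = 0.315).

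The circadian clock is a loop in which the proteins ARNTL and CLOCK activate E-box genes that feed back on them. Of 29 clock genes 8 fell and 5 rose (6 and 0 with the 12 arrays). Ciart, an inhibitor of the activator complex, read 7.47, 6.74 and 7.16 in the C26 hearts and 8.41, 8.19 and 8.26 in the NTB hearts. It fell by 1.16 ± 0.15 (adjusted p = 2.25e-04) without overlap. Dbp, an output factor that binds D-boxes, read 9.77, 9.47 and 9.43 in the C26 hearts and 10.59, 10.37 and 10.33 in the NTB hearts and fell by 0.88 ± 0.10. Bhlhe41 (-1.09), Hlf (-0.83) and Per3 (-0.71) fell with them, and the D-box repressor Nfil3 rose by 1.14 ± 0.27, with overlapping groups. Arntl rose by 0.59 ± 0.14, without overlap. Nr1d1 read 11.14, 10.04 and 10.13 in the C26 hearts and 11.28, 10.67 and 10.66 in the NTB hearts, with replicate 1 the highest of both groups, and was not called (-0.43 ± 0.24, adjusted p = 0.324), nor were Per1 (0.01, 0.968) and Per2 (-0.01, 0.970). The hour of tissue collection is not in the labels, and a difference in hour between the groups cannot be told apart from one brought by the tumour. The rises numbered 3 without C26 heart 2 or NTB heart 1, 2 without C26 heart 3 or NTB heart 2 and 1 without NTB heart 3. The promoters of Ciart (chr3:95882229-95882478, minus strand) and Per3 (chr4:151044666-151044915, minus strand), 250 bases each before the start (RefSeq, GRCm38.p6), are shown because they hold more than 1 match to a clock motif. The capitals in Ciart are 3 matches to the E-box CACGTG, at 116, 58 and 44 bases before the start, and those in Per3 are 2 matches to the D-box TTATGTAA on either strand, at 205 and 158 bases.
Ciart: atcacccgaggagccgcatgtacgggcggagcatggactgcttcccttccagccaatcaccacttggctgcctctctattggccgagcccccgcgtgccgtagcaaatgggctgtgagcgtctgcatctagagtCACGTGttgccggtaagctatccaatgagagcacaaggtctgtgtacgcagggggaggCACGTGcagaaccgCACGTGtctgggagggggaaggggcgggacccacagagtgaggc
Per3: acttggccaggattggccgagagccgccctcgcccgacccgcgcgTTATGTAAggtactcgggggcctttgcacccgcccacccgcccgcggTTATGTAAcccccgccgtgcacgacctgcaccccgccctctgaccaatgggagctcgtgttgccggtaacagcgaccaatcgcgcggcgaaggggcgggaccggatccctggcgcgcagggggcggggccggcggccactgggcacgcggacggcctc
An E-box was found in 7.04% of promoters of genes that rose, 7.08% of genes that fell and 7.17% of all, and 3 or more in 0.0%, 0.24% and 0.11%. A D-box was found in 0.82% of promoters of genes that rose, 0.71% of genes that fell and 0.79% of all, and 2 or more in 0.12%, 0.12% and 0.03%. Shares for several matches rest on few promoters. Those of the genes that fell include Ciart and Per3 themselves, which were picked for their matches. Nfil3 was not called without C26 heart 2, C26 heart 3, NTB heart 1 or NTB heart 3 (adjusted p up to 0.0854). Arntl was not called without C26 heart 3, NTB heart 2 or NTB heart 3 (adjusted p up to 0.0780). Nfil3 and Arntl were not called with the 12 arrays (adjusted p up to 0.0727).

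Adult cardiomyocytes have left the cell cycle. Of 64 cell cycle genes 1 rose, Cdkn1a, and 4 fell, against 5.53% and 5.54% of all features. Ccnd1 (cyclin D1) read 8.36, 8.28 and 8.04 in the C26 hearts and 9.32, 9.23 and 9.28 in the NTB hearts and fell by 1.05 ± 0.09 (adjusted p = 8.28e-06), without overlap, and the centromere histone Cenpa fell by 1.03 ± 0.10. Rises of cell cycle genes numbered 2 without NTB heart 1 and falls 7 without NTB heart 2. The proliferation marker Mki67 was not called (-0.38, adjusted p = 0.0995). Of 49 apoptosis and p53 genes 9 rose and 3 fell (6 and 0 with the 12 arrays), with the inflammatory caspase Casp4 at 0.77 and the death receptor Fas at 0.76, and falls numbered 1 without C26 heart 2, NTB heart 2 or NTB heart 3. Of 46 nuclear receptor, retinoid and thyroid genes 11 rose and 7 fell, with the liver X receptor Nr1h3 at 0.98 ± 0.10 and the chemoattractant Rarres2 (chemerin) at 1.13 ± 0.10. That count of rises was 7 without C26 heart 2 or NTB heart 3, the falls numbered 3 or 4 without C26 heart 2, C26 heart 3, NTB heart 1 or NTB heart 3, and with the 12 arrays 3 rose and 0 fell. In the remaining lists, cholesterol synthesis and uptake had 4 of 31 up and 3 down, polyamine metabolism 2 of 16 up and 1 down, nerve and Schwann cell markers 1 of 20 up, epicardial and mesothelial markers 2 of 16 up, and skeletal muscle genes 3 of 25 up and 4 down. Cholesterol genes that fell numbered 1 without C26 heart 2, C26 heart 3 or NTB heart 1, nerve markers that rose 2 without NTB heart 3 and skeletal muscle genes that rose 1 without C26 heart 2, C26 heart 3, NTB heart 1 or NTB heart 2. Polyamine genes that rose numbered 1 whichever heart was left out and those that fell 0 without C26 heart 2, C26 heart 3, NTB heart 1, NTB heart 2 or NTB heart 3. With the 12 arrays the rises and falls in these 5 lists were 2 and 1 for cholesterol, 1 and 0 for polyamines, 0 and 0 for nerve, 0 and 0 for epicardium and 1 and 3 for skeletal muscle genes.

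Whether the leading changes of the heart were shared by a limb muscle was asked with the interaction of tumour and tissue over the 12 arrays, in which the difference between the change in heart and that in gastrocnemius was called in 763 features (3.57%). Of the 40 leading heart genes the difference was called in 23, 10 of the rises and 13 of the falls. These genes were chosen for their size in heart, so that a smaller change elsewhere is favoured by the choice, and their count is a description. Srpx rose by 3.17 in heart and changed by 0.19 in gastrocnemius (adjusted p of the difference = 6.91e-06). Scgb3a1 (3.57 against 1.09, 1.64e-04), Vsig4 (2.55 against 0.28, 0.00146), Ahsg (2.48 against 0.29, 5.23e-05) and Timp1 (1.95 against 0.07, 0.0123) also rose more in heart. Mt2 was the rise that differed the other way, with 2.20 in heart and 4.06 in gastrocnemius (0.0271). Among the falls Fgf16 (-2.05 against -0.19, 1.40e-04), Aplnr (-1.60 against -0.27, 0.0163) and Kcnip2 (-1.20 against -0.04, 0.0165) were larger in heart. Nrep (-1.44 against -3.03, 0.00457), Itgb6 (-1.30 against -2.80, 0.00569) and Casq1 (-1.18 against -2.40, 0.0250) fell more in gastrocnemius. For the other 17 the difference was not called, among them Lcn2 (4.43 against 3.11, 0.240) and Cdkn1a (2.90 against 2.17, 0.193), which does not show that they changed alike. Because the gastrocnemius muscles were taken from other cohorts, tissue and cohort cannot be told apart.

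**Figure D5:**
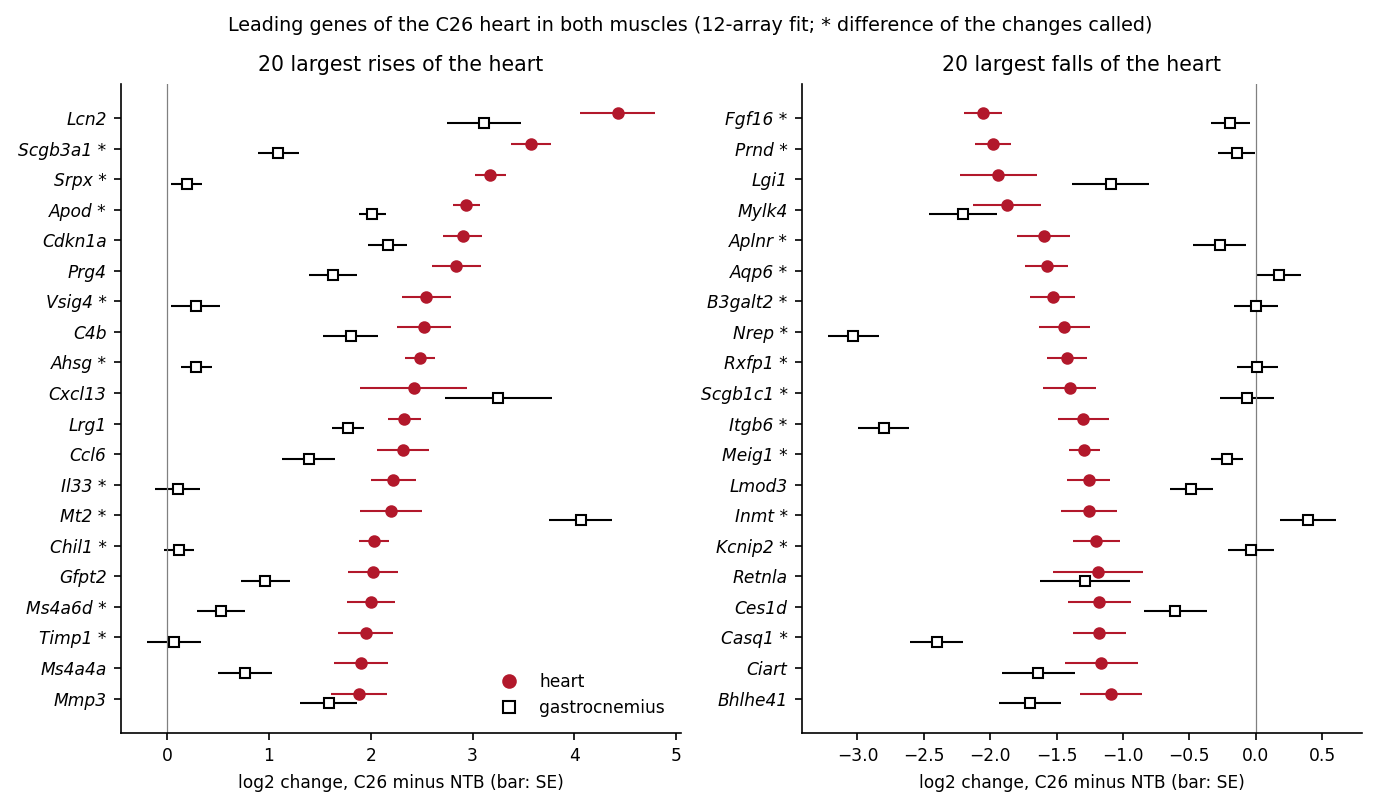
Log2 change, C26 minus NTB, of the 40 leading heart genes in heart (filled circles) and gastrocnemius (open squares) with SE, from the fit of all 12 arrays, and an asterisk where the difference of the changes was called. Srpx, Il33 and Timp1 are near 0 in gastrocnemius, whereas Mt2, Nrep, Itgb6 and Casq1 changed more there.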

How the data were processed

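The 12 samples (3 C26 and 3 NTB hearts, 3 C26 and 3 NTB gastrocnemius muscles) were hybridised to Affymetrix mouse gene arrays, and the deposited values are log2 levels by the authors, with that scale read from the values. The submitters' processing notes name GCOS, RMA and Partek and the genome build mm8, without versions. Whether the 12 arrays were normalized together is not given in the sources used here, and RMA makes the arrays of a set share 1 distribution. A second table holds 12 per-sample columns whose names are not those of the samples, and it was not used.

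Of 35556 rows 23819 carried a symbol. Symbols are cut to 7 characters in the file. Of 7122 such rows 5369 were named through their accession, and 1753 stayed unnamed features. For 1364 genes with several rows the row with the highest mean was kept. The median level of the 6 hearts was 6.40 to 6.45.

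Changes were tested on the 6 heart arrays with limma 3.58.1 (R 4.3.3, lmFit and eBayes with trend, two-sided), which left 4 residual degrees of freedom. The fit was tested on simulated data with known changes, drawn independently for each feature. Of 100 features changed by 0.5 on the log2 scale 31% were called, and of 100 changed by 1 93%, with 4 false calls. A gene that was not called is therefore not shown to be unchanged. The precision is limited by the number of arrays. The interaction with tissue was fitted on 12 arrays. The alternatives were the 12-array fit, no trend, quantile normalization, centring, filters on dim features, the mean of a gene's rows, array weights, the replicate number as a block, each heart left out and, chosen after seeing the data, named genes only.

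The gene lists, named genes and tests were chosen with earlier results of these data known. Named were the 20 largest rises and falls among called genes whose groups did not overlap, predicted genes and unresolved rows left out. Named too were up to 6 called and 3 uncalled members of each list, and a fixed set of muscle, cytokine, metal and clock genes. Actc1, Adgre1, Cd68, Csf1r, Pdgfra, Dcn, Pecam1, Cdh5, Apln, Angpt2, Kcnd2, Cxcl9, Ifitm1, Oas2, Serpina3h and Serpina3c were added after their values were seen. Some genes that the rule names are not reported here. Promoters and gene names came from RefSeq (GRCm38.p6).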

Additional observations from a re-analysis of the deposited data

Results flagged for a closer look

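In 23 of the 40 leading heart genes the change in heart and the change in gastrocnemius differed by the interaction test over the 12 arrays (limma, adjusted p under 0.05 over all features). Over all features the difference was called in 763 (3.57%). The 40 genes were chosen for their size in heart, which favours a smaller change in gastrocnemius, so their count is a description. Values are the change in heart minus that in gastrocnemius, on the log2 scale. Among the rises Srpx differed by 2.98, Scgb3a1 by 2.48, Vsig4 by 2.27, Ahsg by 2.20 and Il33 by 2.12, all larger in heart. Chil1 (1.92), Timp1 (1.88), Ms4a6d (1.47) and Apod (0.92) followed, and Mt2 (-1.86) was larger in gastrocnemius. Apod rose in both muscles, by 2.94 in heart and 2.02 in gastrocnemius.

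Among the falls that were larger in heart were Fgf16 (-1.86), Prnd (-1.84), Aqp6 (-1.75), Inmt (-1.65), B3galt2 (-1.53) and Rxfp1 (-1.43). Scgb1c1 (-1.34), Aplnr (-1.33), Kcnip2 (-1.17) and Meig1 (-1.08) were larger in heart too. The positive differences of Nrep (1.59), Itgb6 (1.50) and Casq1 (1.23) mark larger falls in gastrocnemius. Level differences between the tissues and the separate cohorts were not separated from these values.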

How the results depend on the processing

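The counts of 1182 rises and 1184 falls stayed within 1.5 times under every alternative run except the fit of all 12 arrays, which gave 423 and 217. The cause of that drop was not tested. Leaving out 1 heart gave 817 to 1087 rises and 790 to 1013 falls, and centring each array 1042 and 1396, so that the higher share was 42.7% in place of 50.0%. Of 228 called genes named here 219 were called whichever heart was left out and 174 with the 12 arrays, and none reversed direction. The 9 calls lost without 1 or more hearts were those of Actc1, Arntl, Cdh5, H2-Ab1, H2-Eb1, Kcnd2, Nfil3, Nppa and Pecam1. Of 61 list medians 49 kept their sign when the arrays were centred (a shift of -0.027) and without each heart, and the other 12 were at most 0.07 from 0. In 1 or more of these fits 34 of the 61 medians moved by at least the spread of the list's mean level between hearts of a group. Replicate numbers were not shown to pair the hearts: the deviations of same-numbered hearts correlated at 0.168, -0.005 and 0.062 for numbers 1 to 3. With the number as a replicate block 1273 features rose and 1285 fell, and the endothelial markers that fell went from 3 to 6. After quantile normalization of the 12 arrays the interaction was also called for Prg4 (1.26, adjusted p = 0.0403) and Lmod3 (-0.81, 0.0223). Low levels could not be separated from background, and with 3 hearts per group small changes can be missed.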

Other observations

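Sensory receptor and small nucleolar RNA rows were also among the calls. Of 1343 odorant and vomeronasal receptor rows 124 (9.23%) were called lower in C26 hearts and 1 higher, against 5.54% and 5.53% of all features. Their median change was -0.14, near the medians of complex I (-0.20) and complexes II to V (-0.16), and its cause was not tested. Their median level in NTB hearts was 4.54, against 6.34 over all features. Of the 1184 falls 184, and of the 1182 rises 259, were in features under the median NTB level. Of the small nucleolar RNA rows cut to Snord11, 19 were called lower, and 18 of these held the same values on each array, so that they count as 1 measurement. The 1182 rises held 1182 distinct profiles and the 1184 falls 1163.

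Other rows without a resolved name changed by 2-fold or more. A row cut to Serpine rose by 1.64 ± 0.15. A row cut to Adamts1, for which 4 ADAMTS protease genes fit, rose by 1.25 ± 0.11, beside Adamts1 itself. A row cut to H2-Ea-p fell by 1.06 ± 0.10, as did members of the MHC class II list.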
